A study of Mus musculus with 3 samples.

Results

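Firre and 4933407K13Rik, the gene that covers the Dxz4 locus, are 2 long noncoding genes of the mouse X chromosome, taken from 1255 protein-coding and long noncoding genes of that chromosome. They were chosen by name, and their members are all listed sites in each gene body with 5 kb added on both sides. Firre lies at X:50563120-50635321 and 4933407K13Rik at X:75725458-75764699 of mm10, and both are transcribed from the minus strand, so that the annotated start of each is its higher coordinate. The window of Firre measures 82.2 kb and held 77 listed sites in MidK, 203 in LowK and 280 in MEF. The window of Dxz4 measures 49.2 kb and held 56, 113 and 135 sites in the same libraries.

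The study isolated chromatin bound by LSD1 (Kdm1a) with an antibody and read it by allele on the X chromosome. MidK is a library of cells that carried the reprogramming vector SeVdp(fKOSMaB) to day 20 with 30 nM Shield1, and LowK is the same at day 20 without Shield1. MEF is a library of mouse embryonic fibroblasts at day 0, the cell type that received the vector, with neither vector nor Shield1 in its labels. MidK and LowK are labelled as reprogramming cells and not as a finished stem cell line. The sources used here do not give the sex of the fibroblasts or the strain that carries the variant base. All 3 libraries were made with the same antibody. Each group is 1 library, so no difference below has a replicate check and no p-value was computed.

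LSD1 removes methyl groups from lysine 4 of histone H3 and works with corepressors such as CoREST at promoters and enhancers. Firre is transcribed into a nuclear RNA with a repeated domain that binds the matrix protein hnRNPU, and it is one of the noncoding genes known to escape X inactivation. Dxz4 is a tandem repeat whose copy on the inactive X binds CTCF and cohesin. It is the boundary between the large domains into which the inactive X folds, and Firre makes long-range contacts with it. Shield1 is a small molecule that binds destabilising domains and so keeps proteins fused to them from being degraded.

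The sequence around the annotated start of each gene is shown to place the listed sites on it, since LSD1 is known at promoters. RefSeq gives 250 bases before and 50 after each start in build GRCm38.p6, which is the build named mm10, and both genes were matched. The Firre window is chrX:50635272-50635571 and the Dxz4 window chrX:75764650-75764949, both printed on the minus strand. Capitals mark positions at which at least 1 of the 3 libraries listed a variant base; the letters are those of the minus strand, while substitutions below are given on the plus strand, as B6 base, mm10 position and variant base.
Firre: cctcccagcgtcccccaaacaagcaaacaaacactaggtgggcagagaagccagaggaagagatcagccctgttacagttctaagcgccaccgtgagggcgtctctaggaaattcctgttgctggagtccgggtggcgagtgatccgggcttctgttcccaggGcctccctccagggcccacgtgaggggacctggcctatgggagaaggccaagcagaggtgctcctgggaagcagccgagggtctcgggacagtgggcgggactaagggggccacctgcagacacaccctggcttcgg
4933407K13Rik: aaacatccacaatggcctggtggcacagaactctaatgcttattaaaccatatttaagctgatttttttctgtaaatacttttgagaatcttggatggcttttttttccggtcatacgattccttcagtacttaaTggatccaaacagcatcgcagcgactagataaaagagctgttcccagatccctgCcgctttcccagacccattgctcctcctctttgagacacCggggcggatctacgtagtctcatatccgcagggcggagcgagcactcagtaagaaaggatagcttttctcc
The Firre promoter held 1 listed position, C50635408T, with 0 B6 and 2 variant reads in LowK and 1 B6 and 3 variant reads in MEF; MidK did not list it. The Dxz4 promoter held 3 listed positions with 4 reads in all, and only LowK listed them. The GC content was 62.7% for Firre and 45.3% for Dxz4, against a median of 52.7% over 32851 mouse promoters. Neither window held the CTCF core CCANNAGNNGGC or the YY1 core AANATGGC on either strand, motifs that 2.43% and 6.05% of those promoters hold. That says only that these letters are not in these windows.

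The lists held 203350 reads at 119257 sites in MidK, 295240 at 186841 in LowK and 883058 at 411944 in MEF. Every listed site has at least 1 variant read, so a read is counted only where a variant was called, and a position missing from a list can still have been covered by B6 reads. Without an input library, read shares describe coverage and cannot be read as enrichment. Between the day-20 libraries and MEF, the fibroblast genes chosen as markers had 0 called higher and 2 lower of 9 in MidK, and 1 and 1 of 9 in LowK. Over all genes 9.64% were called higher and 9.73% lower in MidK over MEF, and 7.32% and 6.3% in LowK over MEF. The stem cell genes had 3 higher and 0 lower of 7 in MidK, and 6 and 0 of 7 in LowK. Of the fibroblast genes Srpx and Itm2a were lower in MidK, and Plp2 was higher and Itm2a lower in LowK, where the call of Itm2a was lost with 1 site per 300 bp (0.437). With library totals Gpc3 was also called lower in MidK over MEF (0.482), as were 230 of 1079 genes. Rhox5, Dusp9 and Trap1a were the stem cell genes called in MidK, and LowK added Tfe3, Eras and Sox3. In MidK the calls of Rhox5 and Dusp9 were lost both by library totals (1.66 and 1.57) and at 1 site per 300 bp (1.44 and 1.64). Sox3 was called lower in MidK over MEF with library totals (0.303), again a setting that called 230 of 1079 genes lower. In LowK the calls of Rhox5 and Dusp9 were lost with 1 site per 300 bp (1.78 and 1.92). Set against LowK, MidK had Plp2, Tfe3, Eras and Sox3 lower and Trap1a higher, of 8 fibroblast and 7 stem cell genes tested. Of all genes, 8.73% were called higher and 11.8% lower in that comparison. The Trap1a call was lost there both by library totals (1.48) and at 1 site per 300 bp (1.57). Library totals added Srpx (0.368) and Bgn (0.454) as lower, in a setting that called 29.2% of all genes lower. These are shares of chromatin reads and not expression, so they do not check the cell type.

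Dxz4 held its largest share of reads in LowK. It had 134 reads in MidK, 545 in LowK and 629 in MEF. Per 10000 listed reads on the X chromosome this was 6.59 in MidK (exact 95% Poisson interval 5.52 to 7.80), 18.5 in LowK (16.9 to 20.1) and 7.12 in MEF (6.58 to 7.70). LowK lay above both other libraries, whose intervals overlapped. Intervals cover counting error only, and they are too narrow where 1 read crosses several listed sites and is counted at each.

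Firre also held its largest share in LowK, with a smaller step. It had 122 reads in MidK, 364 in LowK and 688 in MEF, which is 6.0 per 10000 listed reads in MidK (4.98 to 7.16), 12.3 in LowK (11.1 to 13.7) and 7.79 in MEF (7.22 to 8.40). LowK was again above both others, and the interval of MidK lay just below that of MEF.

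**Figure D1:**
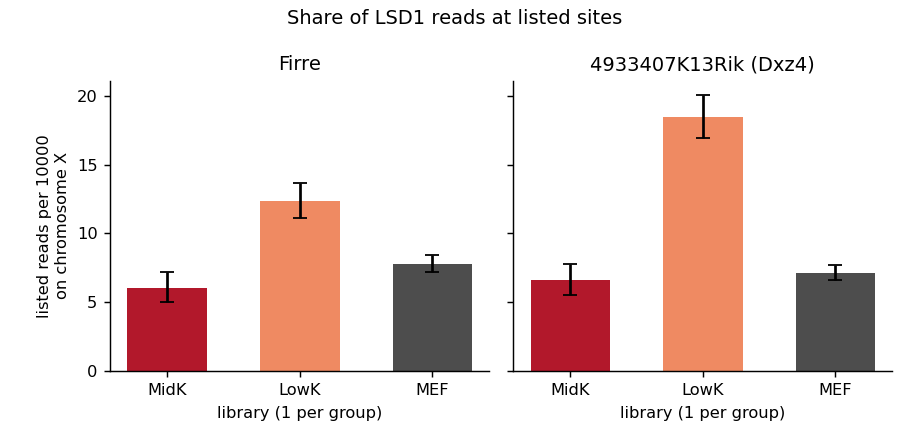
Listed LSD1 reads per 10000 on chromosome X (vertical axis) at Firre and Dxz4 in 1 library each of MidK, LowK and MEF; bars are the values and error bars exact 95% Poisson intervals of counting error. LowK is highest at both, at 12.3 for Firre and 18.5 for Dxz4.

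A gene was called different when its share, scaled to the median gene of the chromosome, differed at least 2-fold with intervals apart and at least 30 reads in 1 of both libraries. In LowK over MEF, Dxz4 was called higher and Firre was not, against 7.32% of 1079 genes called higher, 6.3% called lower and 13.6% in either direction. The ratio of Dxz4 was 2.44 (2.17 to 2.74), and 3.24% of genes had a higher one. The call was kept with library totals, without the deepest 1% of sites, over the gene body and with insertions and deletions, where 9.55%, 6.7%, 10.2% and 6.65% of genes were called higher. It was lost at the deepest site in each 300 bp (1.91, with 4.5% of genes called higher), with each such site counted once (1.20, 0.15%) and at positions listed in all 3 libraries (1.5, 22.2%). The positions listed in all 3 libraries were scaled to their read totals and not to the median gene. In the main setting the ratio of Firre was 1.49 (1.31 to 1.69), with 21.2% of genes higher.

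In MidK over MEF neither gene was called, against 19.4% of 1079 genes called in either direction, 9.64% higher and 9.73% lower. Dxz4 was at 1.26 (1.04 to 1.52) and Firre at 1.05 (0.856 to 1.27). For Dxz4 the direction of this ratio changed with the setting. It was 0.408 at the positions listed in all 3 libraries, called lower as 11.8% of 17 genes were. Those positions were scaled to their read totals, so the scaling changed with the sites. Without the deepest 1% of sites it was 2.31, called higher as 8.93% of 1075 genes were. That cut took the Dxz4 reads of MEF from 629 to 342 and left all 134 of MidK. With library totals the ratio was 0.925 for Dxz4 and 0.770 for Firre, because the median gene itself lay 0.44 lower in MidK on the log2 scale.

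MidK set against LowK gave no call for either gene, against 20.6% of 905 genes called in either direction, 8.73% higher and 11.8% lower. Dxz4 was at 0.526 (0.432 to 0.636) and Firre at 0.717 (0.579 to 0.882). Over the gene body without the added 5 kb Dxz4 was at 0.444 and called lower, as 14.4% of 606 genes were. With library totals, where the median gene lay 0.56 lower in MidK on the log2 scale, both were called lower, at 0.357 for Dxz4 and 0.487 for Firre, as were 29.2% of genes. At positions listed in all 3 libraries, scaled to their read totals, Dxz4 was at 0.272 and called lower, as 12.5% of 16 genes were. Without the deepest 1% of sites it was at 1.12. That cut took the Dxz4 reads of LowK from 545 to 250 and left all 134 of MidK. With 1 site per 300 bp counted once the ratio was 1.26, from 29 such sites in MidK and 41 in LowK.

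**Figure D2:**
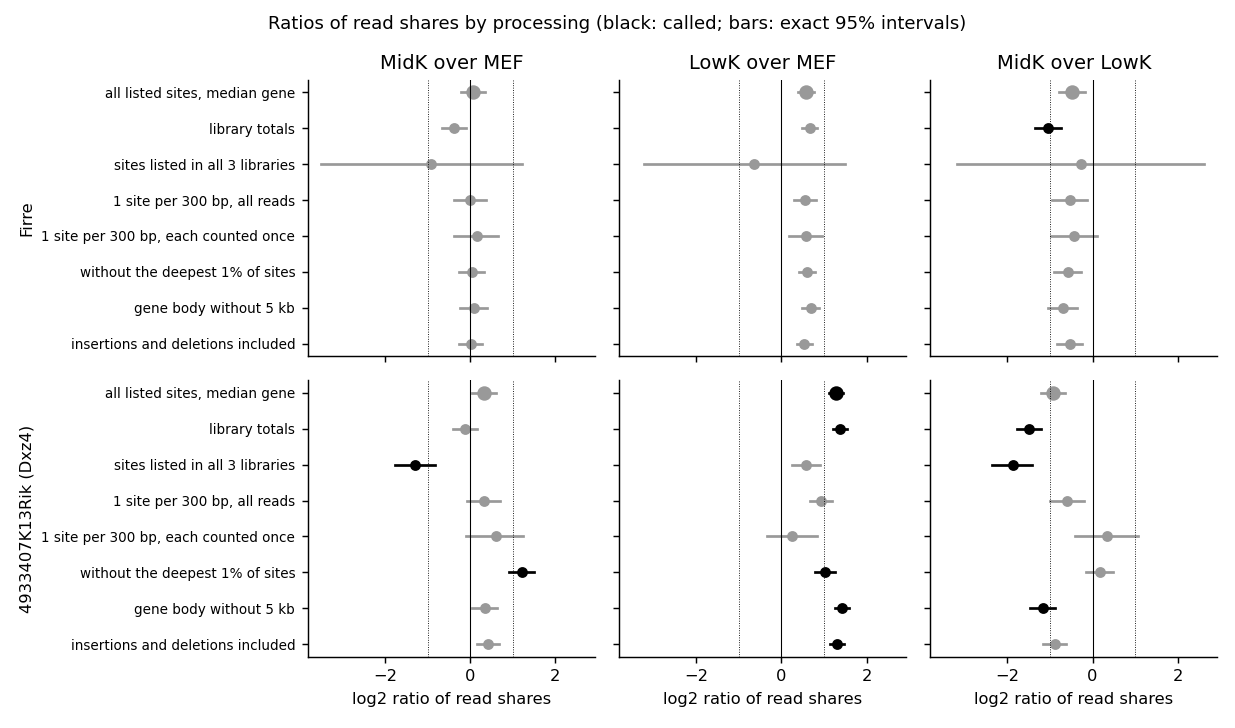
Log2 ratio of read shares (horizontal axis) of Firre (upper row) and Dxz4 (lower row) in the 3 comparisons under the main setting and 7 alternatives; points are values, lines exact 95% intervals, black marks a call and dotted lines 2-fold. The Firre values in LowK over MEF lie between -0.65 and 0.70 and those of Dxz4 between 0.26 and 1.42.

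The Dxz4 reads were packed into the start of the gene. The 10 kb after the annotated start, 20.3% of the window, held 92 of 134 reads in MidK (68.7%), 413 of 545 in LowK (75.8%) and 411 of 629 in MEF (65.3%). This stretch was chosen after the profile had been seen. It had 9.20 listed reads per kb in MidK, 41.3 in LowK and 41.1 in MEF, against 1.07, 3.36 and 5.56 in the rest of the window. LowK thus had as many reads there as MEF from a library with fewer reads in all. Listed sites were packed there too, with 38 of 56 in MidK, 73 of 113 in LowK and 75 of 135 in MEF. Reads per site were 2.42 in MidK, 5.66 in LowK and 5.48 in MEF, against 2.33, 3.30 and 3.63 in the rest. In MidK the depth per site was thus nearly alike in both parts. Scaled to the median gene, the ratio of LowK over MEF was 2.83 (2.46 to 3.25) in this stretch and 1.70 (1.36 to 2.12) in the rest, while MidK over LowK gave 0.476 (0.376 to 0.599) and 0.681 (0.469 to 0.970).

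Among the bins of 5 kb within the gene body, the highest in MidK and LowK lay from 0 to 5 kb after the start, with 53 and 278 reads. In MEF it was the bin from 5 to 10 kb, with 212. The 7 whole bins of the gene body had a median of 7 reads in MidK, 33 in LowK and 48 in MEF.

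The Firre reads were not packed at its start. Its 10 kb after the start, 12.2% of the window, held 8 reads in MidK (6.56%), 25 in LowK (6.87%) and 60 in MEF (8.72%), below their part of the length in each library. Over the 14 whole bins of 5 kb in the gene body the reads ran from 0 to 26 with a median of 5.5 in MidK, from 3 to 67 with a median of 19.5 in LowK, and from 10 to 88 with a median of 39.5 in MEF. The highest bin lay at 10 to 15 kb in MidK, 35 to 40 kb in LowK and 15 to 20 kb in MEF. The highest bin of Firre thus differed between the libraries.

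**Figure D3:**
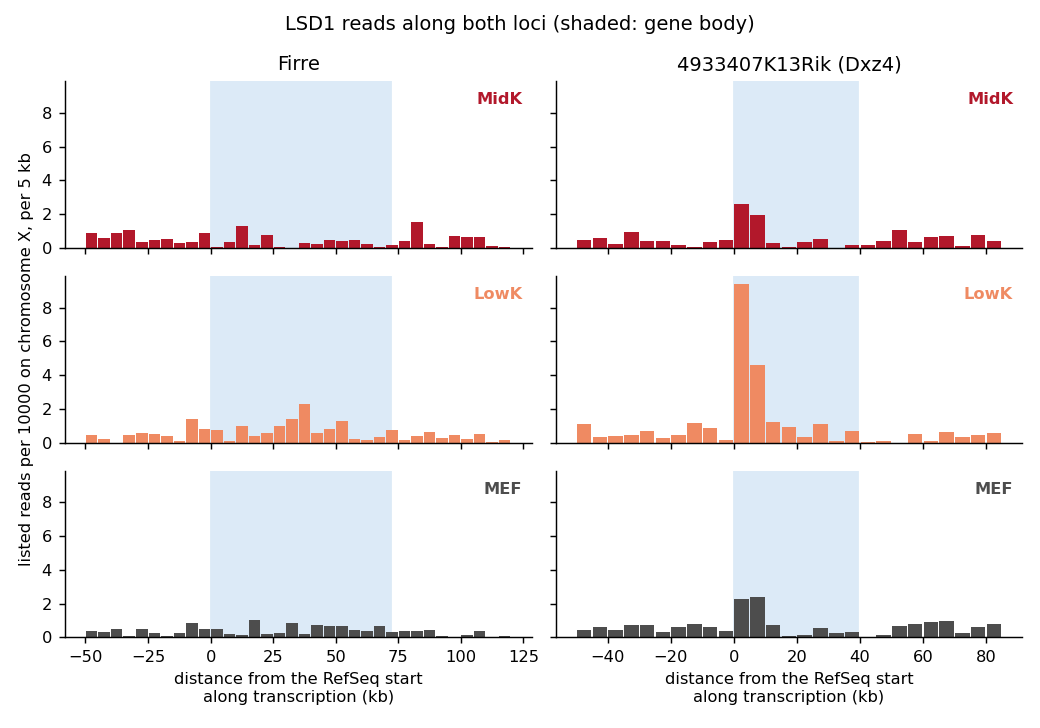
Listed LSD1 reads per 10000 on chromosome X in bins of 5 kb (vertical axis) against distance from the RefSeq start along transcription in kb (horizontal axis), for Firre (left) and Dxz4 (right) in MidK, LowK and MEF; shading marks the gene body. At Dxz4 the bins within 10 kb of the start stand above the other bins of the gene body in each library, and at Firre the highest bin differs between the libraries.

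Set against the 500 kb on each side, Dxz4 stood above its surroundings in LowK and MEF. Its window had 11.1 listed reads per kb in LowK and 2.36 in the flanks, a contrast of 4.68 (4.26 to 5.14), and 8 of 884 genes had a higher one. In MEF it had 12.8 against 6.50, a contrast of 1.97 (1.81 to 2.13) that 37 of 1079 genes exceeded. In MidK it had 2.72 against 2.55, a contrast of 1.07 (0.891 to 1.27) that 245 of 565 genes exceeded. The MidK flank holds 1 stretch of 5 kb, X:75669700-75674699 inside the pseudogene LOC115489104, with 784 reads at 20 sites, 30.8% of all flank reads. The same stretch had 151 reads in LowK and 315 in MEF. Without it, as chosen after seeing the data, the contrast of Dxz4 was 1.53 in MidK, 4.98 in LowK and 2.06 in MEF. With flanks of 100 kb, where that stretch weighs more, it was 0.446 in MidK, 3.34 in LowK and 1.26 in MEF, so the direction in MidK turned.

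Firre had contrasts of 1.06 in MidK (0.871 to 1.27), 2.19 in LowK (1.96 to 2.45) and 1.39 in MEF (1.28 to 1.5). With flanks of 100 kb the MidK value was 0.858. Higher ones were found in 250 of 565, 78 of 884 and 168 of 1079 genes. The median gene had 1.003 in MidK, 1.10 in LowK and 1.05 in MEF.

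The depth per listed site set the loci apart. Dxz4 had 2.39 reads per site in MidK, 4.82 in LowK and 4.66 in MEF, and Firre 1.58, 1.79 and 2.46. Among genes with at least 20 listed sites, 27 of 535 in MidK, 4 of 865 in LowK and 3 of 1041 in MEF had more reads per site than Dxz4. For Firre these were 254, 215 and 175 genes. The median gene had 1.57 in MidK, 1.58 in LowK and 2.18 in MEF. Sites with a single read made up 44.6%, 18.6% and 11.1% of the Dxz4 sites and 70.1%, 56.2% and 38.6% of the Firre sites in MidK, LowK and MEF. Over the chromosome they made up 69.7%, 67.7% and 47.4%, so Firre in MidK lay near the chromosome share.

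**Figure D4:**
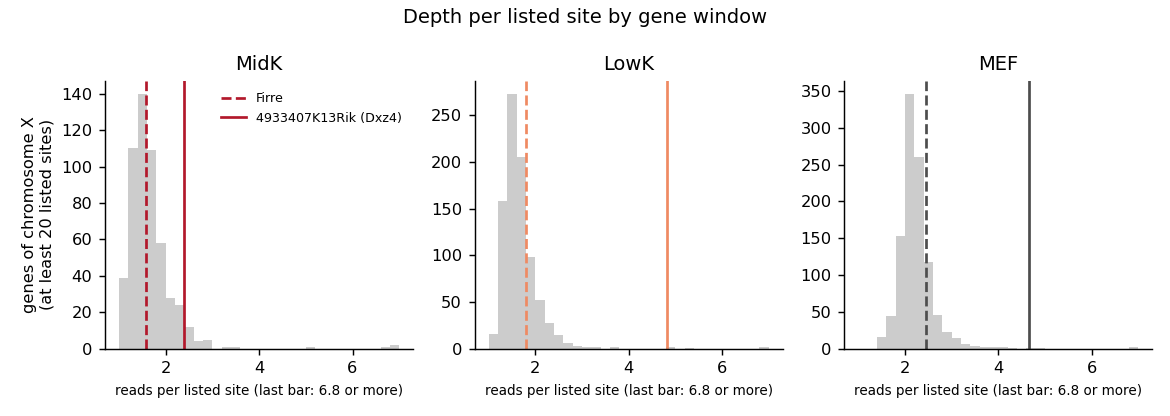
Number of chromosome X genes with at least 20 listed sites (vertical axis) by reads per listed site (horizontal axis) in MidK, LowK and MEF; the dashed line is Firre and the solid line Dxz4. Dxz4 lies in the upper tail, at 2.39, 4.82 and 4.66 reads per site, and Firre near the bulk.

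The deepest 1% of sites, those with more than 7 reads in MidK and in MEF and more than 6 in LowK, held none of the Dxz4 reads in MidK, 295 of 545 in LowK (54.1%) and 287 of 629 in MEF (45.6%). Over the chromosome they held 8.24%, 3.93% and 3.61%. At Firre they held 6.56% of reads in MidK, 1.92% in LowK and 4.94% in MEF. The density of listed sites was less uneven: Dxz4 had 1.14 sites per kb in MidK, 2.29 in LowK and 2.74 in MEF, and Firre 0.937, 2.47 and 3.41, against 0.711, 1.11 and 2.46 along the chromosome. Dxz4 is a tandem array of similar units, so the copy a read came from is uncertain; this was not tested.

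The lists overlapped at Dxz4 by larger shares than over the whole chromosome. Of the Dxz4 sites of MidK, 42.9% were also listed by LowK and 39.3% by MEF, and 42.5% of those of LowK were also listed by MEF. Over the chromosome these shares were 9.53%, 16.7% and 20.3%. In the other direction the shared sites were 21.2% of the LowK sites, and 16.3% and 35.6% of the MEF sites, against 6.08%, 4.82% and 9.22%. Depth per site was also higher at Dxz4, and its part in the overlap was not tested. At Firre, 26.0% of the MidK sites were listed by LowK and 15.6% by MEF, and 13.8% of the LowK sites by MEF.

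All 3 libraries listed 18 positions of Dxz4 and 3 of Firre. Of the positions listed by any library this was 7.89% at Dxz4 and 0.596% at Firre, against 0.463% over the chromosome. Firre thus lay near the chromosome share. The 3 of Firre lie at X:50563055 to 50563072, at least 48 bp outside the gene body, with 3 reads in MidK, 3 in LowK and 7 in MEF. No position within the gene body of Firre was thus listed by all 3. The 18 of Dxz4 lie between 503 and 10818 bp after the start and had 52 reads in MidK, 158 in LowK and 157 in MEF. At 17 of them the libraries listed the same variant base.

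These sites, picked after their values had been seen, include a cluster 4900 to 4948 bp after the start, where 4 sites span 49 bp so 1 read can be counted at several of them. A75759751G had 3 reads in MidK, 15 in LowK and 14 in MEF. G75759765A had 4, 18 and 15 reads, and G75759789A had 4, 15 and 16. The 4 sites together had 12 reads in MidK, 60 in LowK and 60 in MEF, which is 0.590, 2.03 and 0.679 per 10000 listed reads. By share, LowK was thus the highest and MidK and MEF lay close to each other. At A75760216G, 4483 bp after the start, MidK had 6 reads, LowK 17 and MEF 9. At C75764184T, 515 bp after the start, MidK and LowK had 1 read each and MEF 7.

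**Figure D5:**
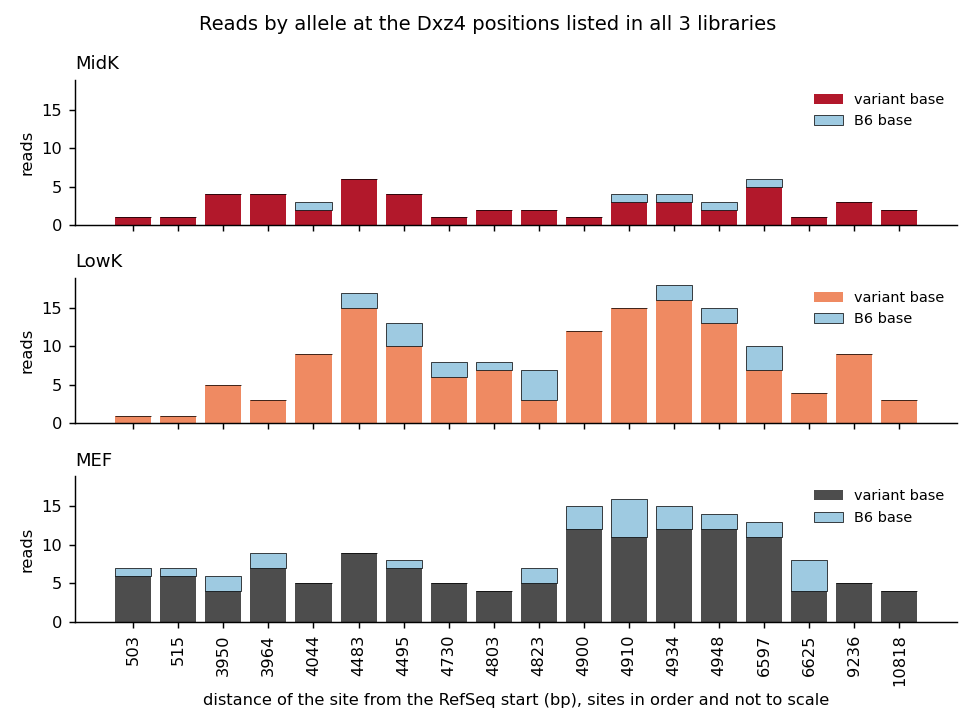
Reads with the variant base (library colour) and the B6 base (blue) on the vertical axis at the 18 Dxz4 positions listed in MidK, LowK and MEF, ordered by distance from the RefSeq start in bp and not drawn to scale. Variant reads make up most of the 52 reads in MidK, 158 in LowK and 157 in MEF.

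Reads were compared by allele where both the B6 and the variant base had 2 or more reads. This rule treats the alleles alike among listed sites. The listing itself does not, since every listed site needs a variant read, so 50% need not mark equal alleles. Dxz4 had 5 sites under this rule in MidK, 27 in LowK and 40 in MEF. They made up 8.93%, 23.9% and 29.6% of its sites, against 6.59%, 3.01% and 7.38% over the chromosome. The copy of the repeat a read came from is uncertain, so the 2 bases need not be 2 alleles, which was not tested. The variant base held 47.8% of the 23 reads at these sites in MidK, with an exact 95% Clopper-Pearson interval of 26.8% to 69.4%. It held 59.6% of 230 reads in LowK (52.9% to 66.0%) and 60% of 335 reads in MEF (54.5% to 65.3%). The intervals of LowK and MEF lay above 50%, and that of MidK held 50%. With 1 site per 300 bp the LowK share was 58.9% (49.7% to 67.6%), which also held 50%. Over the chromosome the same measure gave 44.6% in MidK, 48.2% in LowK and 49.5% in MEF.

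By site, the variant base had more reads than the B6 base at 1 Dxz4 site in MidK, 11 in LowK and 20 in MEF, and fewer at 2, 12 and 5. The sites of LowK were thus about evenly split although its reads were not. In the 10 kb after the start the variant share was 44.4% of reads in MidK (13.7% to 78.8%), 64.6% in LowK (57.2% to 71.6%) and 63.4% in MEF (57.0% to 69.4%), and in the rest of the window 50%, 40.8% (27.0% to 55.8%) and 51.1% (40.4% to 61.7%). The intervals of LowK in the 2 stretches lay just apart, at 57.2% and 55.8%, but the stretches were chosen after the profile had been seen. Such intervals are too narrow where 1 read is counted at several sites. The split was not repeated with 1 site per 300 bp, so no difference between the stretches is read from it. Single sites went both ways: G75759765A, the deepest of LowK, had 2 B6 and 16 variant reads in LowK and 3 and 12 in MEF, while C75759052T had 10 B6 and 2 variant reads in LowK. The second of these was picked after its values had been seen. In MEF 2 sites tied as deepest, A75734857C with 8 reads of each allele and G75759789A with 5 B6 and 11 variant reads. In MidK 3 sites tied, G75758102A and T75758279C with 1 B6 and 5 variant reads each and A75760216G with 0 B6 and 6 variant reads.

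Firre had 4 sites with 2 or more reads of each base in MidK, 8 in LowK and 28 in MEF. These were 5.19%, 3.94% and 10% of its sites, against 6.59%, 3.01% and 7.38% over the chromosome. The variant share at Firre was 39.3% of 28 reads for MidK (21.5% to 59.4%), 45.9% of 37 reads for LowK (29.5% to 63.1%) and 50.7% of 152 reads for MEF (42.4% to 58.9%). All 3 intervals held 50% and overlapped each other. The variant base had the majority at 0 sites in MidK, 1 in LowK and 10 in MEF, and the minority at 3, 2 and 9. The deepest Firre site was C50624562T in MidK with 5 B6 and 3 variant reads, G50623138A in LowK with 5 and 2, and A50580970C in MEF with 7 and 3. Allowing sites with 1 read of an allele raised the Firre share in MEF to 61.7%.

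Sites with variant reads only are another view of the same lists. Among sites with at least 3 reads they made up 39.1% of the 23 Dxz4 sites of MidK (19.7% to 61.5%), 42.1% of the 76 of LowK (30.9% to 54.0%) and 33.0% of the 88 of MEF (23.3% to 43.8%). At Firre they made up 33.3% of the 6 sites of MidK (4.33% to 77.7%), 63.2% of the 38 of LowK (46.0% to 78.2%) and 41.1% of the 107 of MEF (31.7% to 51.0%). The chromosome had 17.0% in MidK, 38.7% in LowK and 43.9% in MEF. The lower bound lay above the chromosome value for Firre in LowK and for Dxz4 in MidK. For Dxz4 in MEF the upper bound lay just below it, at 43.8% against 43.9%. The intervals treat sites as independent, but neighbouring sites can be crossed by the same read. Where that happens the intervals are too narrow, so no difference from the chromosome is read from these bounds.

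Transitions made up 46.4% of the Dxz4 sites in MidK, 54.9% in LowK and 43.0% in MEF, and 58.4%, 65.0% and 51.1% of the Firre sites. The chromosome had 59.7%, 61.9% and 61.8%. Dxz4 lay below the chromosome in each library, and Firre in MEF. Firre lay close to the chromosome in MidK and above it in LowK. No interval was computed for these shares.

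Gm35612, the gene nearest to Firre, had a ratio like its own in LowK over MEF, and the gene on the other side a lower one. Of the 6 genes within 500 kb, all testable in LowK over MEF, 0 were called, where 13.6% of all genes were. Their ratios ran from 0.516 to 1.5. Gm35612, a long noncoding gene that ends 521 bp from Firre, had 65 reads in MidK, 94 in LowK and 176 in MEF. Its ratio was 2.18 (1.61 to 2.91) in MidK over MEF, called higher, though with library totals it was 1.60 and with 1 site per 300 bp 1.94, neither called. In LowK over MEF it was at 1.5 (1.16 to 1.94). Part of the Gm35612 body lies in the Firre window, with 1 read there in MidK, 11 in LowK and 38 in MEF. The counts of Gm35612 also include 5 kb on both sides, which reach further into that window. Its counts thus share at least these reads with Firre, and the ratios of both genes are not independent. On the other side Stk26, a kinase gene 205852 bp away (X:50841174-50893103), had 41 reads in MidK, 102 in LowK and 415 in MEF, with a ratio of 0.692 (0.551 to 0.861) in LowK over MEF. Frmd7, a gene of a FERM domain protein, was lower in MidK over MEF at 0.452 (0.313 to 0.635), and not called with 1 site per 300 bp. Of the 6 genes, 1 was thus called higher and 1 lower in MidK over MEF, where 9.64% and 9.73% of all genes were. With library totals Stk26 (0.429) and Mbnl3 (0.433) were also called lower in MidK over MEF, and Frmd7 (0.368) in MidK over LowK. Library totals called 230 of 1079 genes lower in the first and 29.2% in the second.

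Of the 13 genes within 500 kb of Dxz4, 2 were called higher and 1 lower in LowK over MEF, where 7.32% of all genes were called higher and 6.3% lower. The nearest, Pls3, which encodes the actin-bundling protein plastin 3 (X:75785653-75875182), had 132 reads in MidK, 253 in LowK and 862 in MEF. Its ratio was 0.826 (0.715 to 0.951) in LowK over MEF and 0.903 (0.746 to 1.09) in MidK over MEF, below the 2.44 and 1.26 of Dxz4. On the other side Rab39b, a small GTPase gene 147226 bp away, had 20, 19 and 62 reads, with a ratio of 0.862 (0.487 to 1.46) in LowK over MEF. The genes called higher were Gm39522 at 2.04 (1.27 to 3.23) and Gm14717 at 2.22 (1.40 to 3.48), both long noncoding, and Fundc2, a gene of a mitochondrial membrane protein, was lower at 0.398 (0.253 to 0.602). None of these 3 calls was kept with 1 site per 300 bp.

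In MidK over MEF, 5 of these 13 genes were called higher and 0 lower, where 9.64% of all genes were called higher. Gm14717 was at 7.28 (4.87 to 10.9), Gm39522 at 4.52 (2.84 to 7.13) and Gm15384 at 4.05 (2.56 to 6.35), while Gm14707 at 2.22 and Vbp1, a prefoldin subunit gene, at 2.04 were called neither with library totals nor with 1 site per 300 bp. The same 5, of 11 tested, were called higher in MidK over LowK, where 8.73% of all genes were, at 3.35 for Gm14717, 3.25 for Gm15384, 2.44 for Gm14707, 2.26 for Gm39522 and 2.03 for Vbp1. With library totals 2 of them kept that call, Gm14717 at 2.28 and Gm15384 at 2.21. With 1 site per 300 bp Gm14717 (3.03), Gm14707 (2.49) and Vbp1 (2.08) kept it, while Gm15384 and Gm39522 had too few reads to be tested. Dxz4 was at 1.26 and 0.526 in these comparisons, and was called in neither. Both comparisons use the MidK library. With library totals Fundc2 (0.472) and Cmc4 (0.451) were called lower in MidK over MEF, as were 230 of 1079 genes. Cmc4 (0.371) was also called lower in MidK over LowK with library totals, as were 29.2% of genes.

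Of the X-inactivation centre genes, 7 of 8 could be analysed, since the antisense gene Tsix is not among the protein-coding and long noncoding genes used here. None was called in LowK over MEF, where 13.6% of all genes were called. The list's median log2 ratio was 0.09 there, beside 0 over all genes. Jpx, a noncoding activator of Xist, was called lower in MidK over MEF, at 0.320 (0.163 to 0.571), as were 9.73% of all genes. The list's median was -0.15 in this comparison. Against LowK, MidK had 0 of the 7 called, with a median of -0.26, where 20.6% of all genes were called. With library totals Cdx4 (0.433) and Jpx (0.371) were called lower there, as were 29.2% of all genes. Xist, the noncoding RNA that coats the inactive X, had 53 reads in MidK, 72 in LowK and 228 in MEF, with ratios of 1.37 (0.997 to 1.86) in MidK over MEF and 0.889 (0.672 to 1.16) in LowK over MEF. Firre and Dxz4 had higher ratios than Xist in LowK over MEF.

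Of 12 X-linked genes for cohesin subunits and other chromosome proteins, 0 were called in LowK over MEF, where 13.6% of all genes were called. Their median log2 ratio was 0.04. Smc1a, a core subunit of the cohesin ring, was called lower at 0.235 against MEF and at 0.290 against LowK in MidK, from 16 reads in MidK, 118 in LowK and 402 in MEF. Stag2, another cohesin subunit gene, had 138, 228 and 972 reads and ratios of 0.838 in MidK over MEF and 0.660 in LowK over MEF, neither called. Nono, an RNA-binding protein gene, was lower in MidK over MEF (0.490), and Rbmx, which encodes an hnRNP protein, in MidK over LowK (0.398), not called with 1 site per 300 bp. For MidK the list's median log2 ratio was -0.19 against MEF and -0.04 against LowK. With library totals Hcfc1 (0.428), Nono (0.469) and Hmgn5 (0.333) were also called lower in MidK over LowK, and Hmgn5 higher in LowK over MEF (2.03). That setting called 29.2% of all genes lower in the first and 9.55% higher in the second.

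The genes most like Firre in their log2 ratios to MEF, among 788 genes with at least 100 MEF reads, were C330007P06Rik (0.55 in LowK and 0.03 in MidK), Gm14902 (0.53 and 0.10) and Tktl1 (0.60 and 0.02), beside 0.57 and 0.07 for Firre. Those most like Dxz4, at 1.29 in LowK and 0.33 in MidK, were Gm15482 (1.15 and 0.37), AW822252 (1.29 and 0.55) and Rhox1 (1.09 and 0.46). Their Euclidean distances were 0.05 to 0.06 for Firre and 0.14 to 0.23 for Dxz4. The measure rests on 2 ratios that share the MEF library.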

How the data were processed

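LSD1 chromatin was sequenced from 3 mouse samples. Per the submitters' processing notes BWA and build mm10 were used, and per the series' design text bcftools mpileup called variants by allele. The sources used here do not give versions, filters or the handling of duplicates. The authors' files hold read counts per listed position: depth, B6 reads and variant reads, per the file headers. They also hold a reliability score, per the file headers, which was not used. Entries that are not single-base (5.56% of MidK, 6.13% of LowK and 6.97% of MEF entries) and 11 positions listed more than once were left out. All 2260 site entries in RefSeq promoter windows of the X chromosome had the RefSeq base as B6 base, so builds match.

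Genes came from RefSeq GRCm38.p6. Shares of listed reads, which hold 203350 reads in MidK, 295240 in LowK and 883058 in MEF, were compared with Python 3.11.15, NumPy 2.4.6, pandas 2.3.3 and SciPy 1.17.1, scaled to the median gene. Intervals on ratios are exact conditional binomial ones, and the calls were tested on simulated data. Genes were named by a rule: members, nearest and called neighbours, called list genes with Xist, the 3 most like genes and the deepest site of each member. Alternatives were library totals, positions in all 3 lists, 1 site per 300 bp, no deepest 1%, gene bodies alone, insertions and deletions added, other allele minimums and other flanks. Positions in all 3 lists were scaled to their read totals and not to the median gene. The members and lists were chosen with earlier results of these data known. With 1 library per group no p-value was computed; intervals cover counting error only.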

Additional observations from a re-analysis of the deposited data

How the results depend on the processing

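Depth limits both loci: at Firre 70.1% of the MidK sites have 1 read, near the 69.7% over the chromosome. Values by allele in MidK rest on 28 reads at Firre and 23 at Dxz4. Of the alternatives' values for ratios, allele shares, contrasts and gene counts, 50 stayed within the interval of the main value (for gene counts, within 1.5 times) and 37 did not; the cause was not tested. The allele shares at sites of at most 20 reads are among the 50 and could not move, since no site compared by allele had more than 18 reads. Log2 ratios of read shares are given below. Library totals gave -0.38 for Firre and -0.11 for Dxz4 in MidK over MEF; against LowK, MidK gave -1.04 and -1.49, both called lower. Positions listed in all 3 libraries gave -0.92 and -0.65 for Firre in MidK and LowK over MEF, from 3, 3 and 7 reads, and -1.29, 0.58 and -1.88 for Dxz4 against MEF in MidK, against MEF in LowK, and for MidK against LowK. The deepest site per 300 bp with all reads gave 0.93 in LowK over MEF and -0.60 in MidK over LowK for Dxz4, and each counted once gave 0.26 and 0.33. Without the deepest 1% of sites Dxz4 was at 1.21 in MidK over MEF, 1.03 in LowK over MEF and 0.16 for MidK against LowK. This cut took 295 Dxz4 reads in LowK and 287 in MEF but none in MidK. The gene body alone and added insertions and deletions kept all 6 ratios within their intervals, though the gene body alone called Dxz4 lower in MidK over LowK, at -1.17.

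Genes called higher and lower in MidK over MEF numbered 104 and 105, 48 and 230 with library totals, and 64 and 38 with 1 site per 300 bp. In LowK over MEF 79 and 68 became 46 and 30 with 1 site per 300 bp. For MidK over LowK 79 and 107 became 24 and 264 with library totals and 33 and 58 with 1 site per 300 bp. The variant share of Firre in MEF was 61.7% with at least 1 read of each allele. With 1 site per 300 bp the contrast with the flanks was 1.89 in LowK and 1.24 in MEF for Firre, and 3.03 and 1.63 for Dxz4. With flanks of 100 kb it was 0.858 in MidK and 1.54 in MEF for Firre, and 0.446 in MidK, 3.34 in LowK and 1.26 in MEF for Dxz4. Without the 5 kb stretch of LOC115489104 it was 1.53 for Dxz4 in MidK. No paired analysis was possible because each group has 1 library and the labels give no replicate number.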
